A study of Mus musculus with 24 samples.

Results

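The mitosis and spindle genes described here are 52 genes whose products condense and separate chromosomes, build the spindle, or cut the dividing cell apart. They were taken by name, and each was read from the brightest of its probe sets that carried no other gene symbol, by mean log2 intensity over 24 arrays. They make up 52 of the 19938 genes measured this way. The cells were mouse CD4 T cells on the 129SvEv background, either wild-type (WT) or Batf1/3DKO (DKO), a line without the AP-1 family transcription factors Batf and Batf3. Each genotype had naive cells taken before stimulation (day 0) and cells cultured toward the TH2 fate for 2 days (the labels give no anti-CD3e dose) or for 4 days. The cultures of 4 days received anti-CD3e at either of a low dose, 2.2 ng/ml, and a high one, 10 ng/ml. The stimulus in culture was soluble anti-CD3e together with anti-CD28, held by antibody to hamster IgG on the plate, and all cultured groups shared the TH2 conditions. The 8 groups had 3 arrays each, and the title of the study frames them as a question of how T cells grade their response to T cell receptor signals of different strength.

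A naive T cell rests outside the cell cycle, and a signal through its receptor starts growth and then a series of divisions. Genes for mitosis are transcribed late in each cycle, from G2 into mitosis, and their transcripts are low in resting cells, so their level in a culture follows how many cells are dividing and how far each has moved through the cycle. Many such promoters carry a cell cycle homology region (CHR), which is bound by MuvB complexes: with the pocket protein p130 (gene Rbl2) the complex represses in resting cells, and with B-Myb and Foxm1 it activates in G2. CCAAT boxes bound by the factor NF-Y often lie close by. In RNA from a whole culture, fewer dividing cells and less mitotic RNA per cell cannot be told apart.

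Promoter sequence is shown first because the members share letters there that the choice of members did not use. Of the 52 members, 42 matched a promoter in the RefSeq table (build GRCm38.p6), which covers 250 bases before to 50 after each start and holds 27025 genes. The CHR letters TTTGAA, searched on both strands, were in 32 of the 42 (76.2%), against 20.2% of all genes in the table. In the 100 bases from 50 before to 50 after the start they were in 29 of the 42 (69.0%), against 5.72% of all genes. The CCAAT letters were in 30 (71.4%), against 41.1%, and both motifs together in 26 (61.9%), against 7.97%. The CHR variant TTTAAA was in 7 (16.7%), close to the 14.9% of all genes. The AP-1 letters TGANTCA, the kind of site Batf binds with Jun partners, were in 0 of the 42 windows, against 8.97% of all genes, which says nothing of sites elsewhere. A match is a run of letters and not a measured site, and matches to 2 different motifs shared bases in 1 place.

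Stretches from 110 bases before to 20 after the start are given for 9 members, 5′ to 3′ on the strand of the gene. CHR letters (TTTGAA, or TTCAAA where the motif lies on the other strand) and CCAAT letters (CCAAT or ATTGG) are in capitals. The first 4, shown for having both motifs close to the start, belong to a cyclin, its kinase, an activator of the ligase that ends mitosis and a spindle protein. They lie at chr9:70421535-70421664 (minus strand), chr10:69352893-69353022 (minus strand), chr4:118437324-118437453 (minus strand) and chr11:40733418-40733547 (minus strand), in that order.
Ccnb2: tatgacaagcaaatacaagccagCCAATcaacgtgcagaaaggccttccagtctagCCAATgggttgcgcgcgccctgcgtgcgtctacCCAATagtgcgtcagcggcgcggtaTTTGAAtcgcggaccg
Cdk1: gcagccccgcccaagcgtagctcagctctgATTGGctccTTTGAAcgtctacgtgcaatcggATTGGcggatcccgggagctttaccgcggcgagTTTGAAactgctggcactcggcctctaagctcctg
Cdc20: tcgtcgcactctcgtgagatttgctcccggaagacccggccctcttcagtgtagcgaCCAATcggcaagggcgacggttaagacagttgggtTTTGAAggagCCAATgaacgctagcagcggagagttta
Hmmr: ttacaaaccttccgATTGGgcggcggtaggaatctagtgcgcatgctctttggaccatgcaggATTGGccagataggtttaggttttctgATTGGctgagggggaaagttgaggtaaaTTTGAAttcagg

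The other 5 are shown because their genes stood at the edges of the dose comparison below: Kif23, Kif11 and Kif15 had large differences in WT cells, Prr11 had almost none there, and Mad2l1 had the largest difference between the genotypes. They lie at chr9:61946780-61946909 (minus strand), chr19:37376272-37376401 (plus strand), chr9:122950971-122951100 (plus strand), chr11:87108695-87108824 (minus strand) and chr6:66535111-66535240 (plus strand), in that order. The Mad2l1 stretch has neither motif, and neither do the whole 300-base windows of Mad2l1, Melk, Ncaph, Nuf2 and Nusap1, which also lack the other 2 motifs (5 of 42, 11.9%, against 38.4% of all genes).
Kif23: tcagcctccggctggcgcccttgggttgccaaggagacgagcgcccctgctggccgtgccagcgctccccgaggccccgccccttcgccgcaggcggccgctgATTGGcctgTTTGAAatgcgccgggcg
Kif11: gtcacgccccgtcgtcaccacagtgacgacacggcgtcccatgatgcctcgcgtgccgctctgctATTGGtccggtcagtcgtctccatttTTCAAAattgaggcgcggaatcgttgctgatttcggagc
Kif15: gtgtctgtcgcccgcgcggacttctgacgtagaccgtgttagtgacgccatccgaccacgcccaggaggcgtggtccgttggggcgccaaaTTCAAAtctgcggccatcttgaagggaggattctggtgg
Prr11: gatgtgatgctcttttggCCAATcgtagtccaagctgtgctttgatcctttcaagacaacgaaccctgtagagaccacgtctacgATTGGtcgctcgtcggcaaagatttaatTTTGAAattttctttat
Mad2l1: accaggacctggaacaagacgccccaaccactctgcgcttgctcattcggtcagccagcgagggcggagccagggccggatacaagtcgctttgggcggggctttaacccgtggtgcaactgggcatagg

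**Figure D1:**
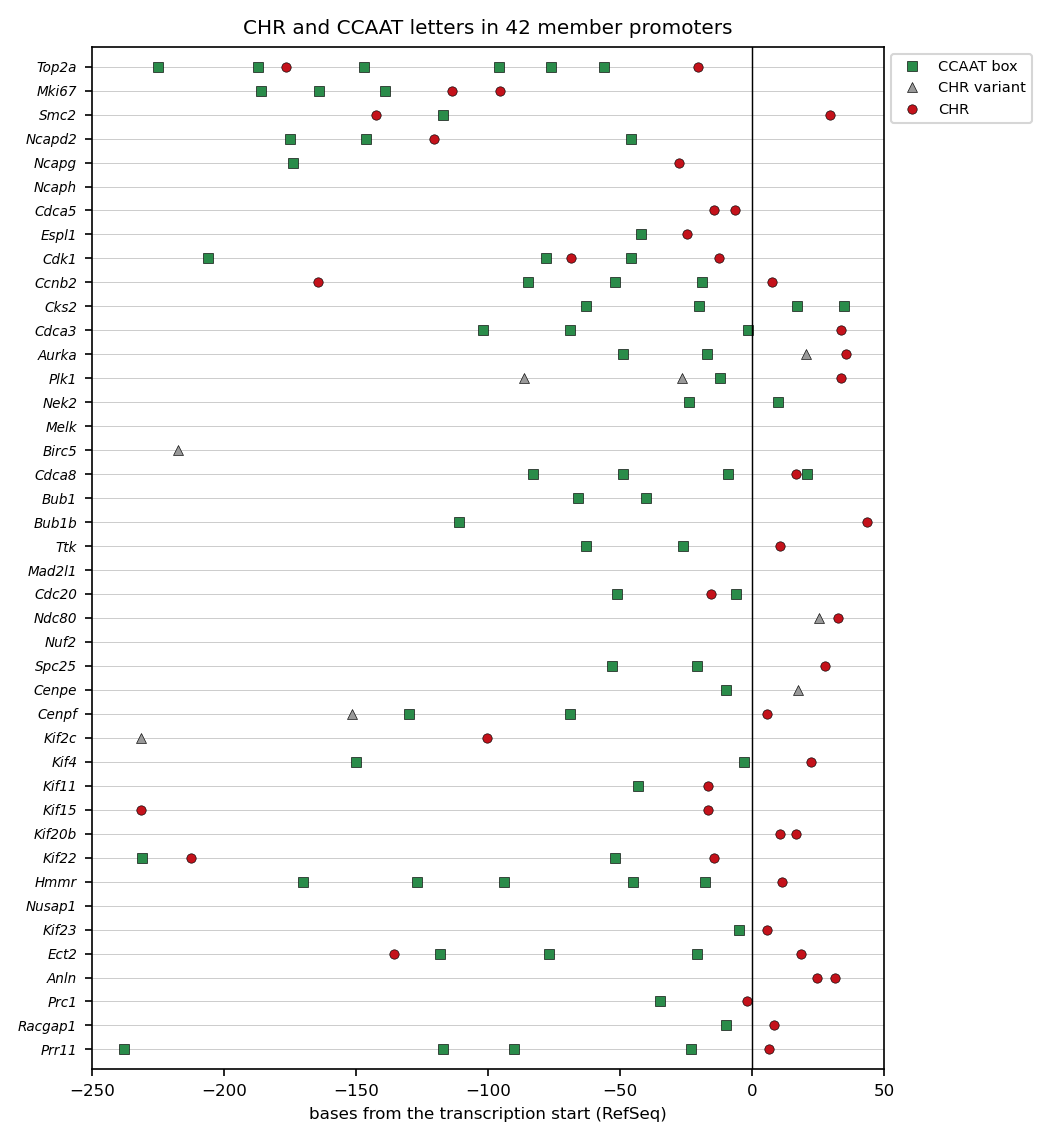
Position of CHR, CHR variant and CCAAT letters on either strand in the promoters of the 42 matched members, in bases from the RefSeq transcription start (vertical line at 0), 1 row per gene. Ect2 and Prc1 had 2 promoters each, of which 1 is drawn, while the shares in the text count letters in either. Most CHR letters lie within 50 bases of the start, and the rows of Mad2l1, Melk, Ncaph, Nuf2 and Nusap1 are empty.

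The arrays themselves were alike: their median intensities ran from 26.4 to 31.6, and arrays of one group correlated at r = 0.983 to 0.992 over all genes. The number of arrays limits the precision, and the labels do not say whether the 3 arrays of a group came from separate mice or cultures, so a p-value here weighs an effect against the scatter of the arrays deposited, part or all of which may be technical. Batf checked the genotype labels: its mean intensity was 135, 722, 1509 and 1595 in WT cells at day 0, day 2, 2.2 ng/ml and 10 ng/ml, and 31.2 to 46.5 in the 4 DKO groups. Batf3 did so in the 10 ng/ml groups alone (146 ± 32.8 in WT and 29.8 ± 4.57 in DKO, SD, n = 3), since its other group means, from 24.2 to 35.8, lay near the median probe set intensity of 28.6. All 6 measured T cell markers were above that median in every group, and the summed intensities of the CD8, NK and red cell lists stayed at 106 or below on every array. The red cell list rested on 1 of its 3 genes, Alas2, and the CD8 marker Cd8b1 was above the median in every group (means 35.9 to 65.4). Sums of the B cell and myeloid lists ran from 51.0 to 153 and from 109 to 170 over all arrays.

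Activation raised nearly the whole set, most of it from dim levels. In WT cells, 51 of 52 members rose from day 0 to day 2 (adjusted p under 0.05 in limma, the rule for every call here; 19.7% of all genes rose), with a median log2 difference of 3.89, or 14.8-fold, against a median of -0.11 over all genes. In DKO cells all 52 rose (15.3% of all genes), with a median of 3.84, or 14.3-fold. At day 0, 34 of the 52 were at or below an intensity of 28.6, the median over all probe sets, in each genotype. The folds of these dim members may understate the change, and no background level was estimated. On the 18 arrays of activated cells all 52 were above 28.6.

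Mki67, the proliferation marker that coats mitotic chromosomes, had intensities of 19.8, 16.4 and 27.4 on the WT day 0 arrays and 996, 878 and 1044 at day 2. Its values in DKO cells were 24.4, 21.3 and 19.1 before stimulation and 1135, 1119 and 949 at day 2. Both genotypes went from dim to bright, with no overlap, by 46.9-fold in WT and 49.6-fold in DKO cells. Top2a, the topoisomerase that untangles sister chromatids, rose 51.7-fold in WT and 38.2-fold in DKO cells. A second, dimmer Top2a probe set rose far less, with geometric means of 25.6 at WT day 0 and 52.8 at WT day 2. Kif11, the motor that pushes spindle poles apart, rose 46.1-fold in WT and 44.0-fold in DKO cells. The checkpoint kinase Bub1 rose 46.6-fold in WT cells from values of 6.45, 8.06 and 12.5 at day 0 to 366, 396 and 452 at day 2.

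Smc4 was the exception. This condensin subunit was already bright in naive cells, at 1251, 1184 and 1108 in WT and 1063, 1364 and 1320 in DKO. At day 2 it stood at 1391, 1312 and 1507 in WT cells, above all 3 naive arrays but with a log2 difference of 0.25 ± 0.12 (SE) that was not called (adjusted p = 0.0978). In DKO cells its rise of 0.41 ± 0.12 was called (adjusted p = 0.00962), but not without DKO day 0 replicate 1 (adjusted p = 0.0881). The next smallest WT rise was 5.38-fold, for Racgap1.

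No member passed the test between the genotypes at day 2 (0 of 52, against 1.03% of all genes higher and 1.68% lower in DKO), and leaving out 1 array gave 0 or 1. In limma 6 members had an unadjusted p under 0.05, as had at least 2631 of all 19938 genes. The interaction of activation and genotype called 0 members as well, against 0.306% of all genes higher and 0.742% lower. Here 8 members had an unadjusted p under 0.05, as had at least 2559 of all genes. At day 0 a single member was called: Ndc80, the microtubule-gripping kinetochore subunit, was at 52.4, 54.6 and 61.9 in WT and 112, 92.0 and 79.0 in DKO naive cells (log2 difference 0.73 ± 0.14, adjusted p = 0.0376; 0.0552% of all genes were called higher). All 3 DKO arrays were above the WT arrays, but the call was lost without WT day 0 replicate 1 or 2 (adjusted p = 0.134 for each) or DKO day 0 replicate 1 (0.215) or 2 (0.119). It was also lost under 6 of 11 other settings: cyclic loess normalization, 16 added before log2, the compared groups fitted alone, array weights, the replicate number as a block, and without replicate 3 of both WT day 2 and WT 2.2 ng/ml (adjusted p up to 0.484).

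**Figure D2:**
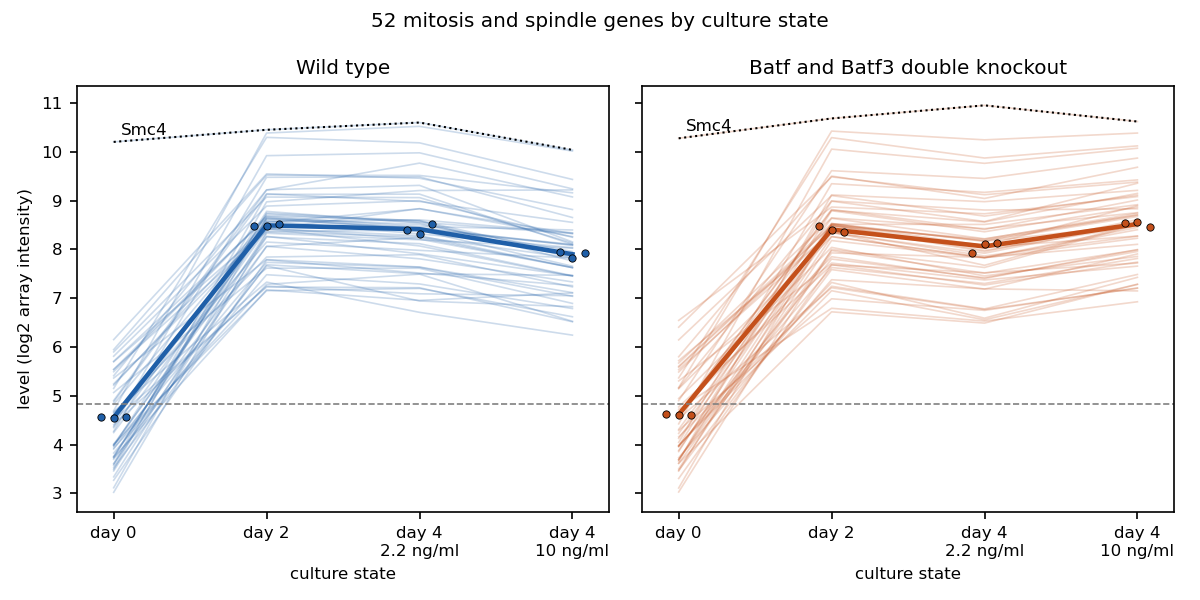
Log2 intensity of the 52 genes in the 8 groups: thin lines join each gene's group means (blue WT, orange DKO), the thick line the mean over the 52, points that mean on each of 3 arrays, the dotted line Smc4, and the dashed horizontal line the median probe set intensity of 28.6. At day 4 the WT mean is lower at 10 ng/ml (7.90) than at 2.2 ng/ml (8.41), and the DKO mean is higher at 10 ng/ml (8.52) than at 2.2 ng/ml (8.06).

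The mean log2 intensity over the 52 genes describes each culture in one number, with no test. In WT cells it was 4.56 at day 0, 8.49 ± 0.03 (SD, n = 3) at day 2, 8.41 ± 0.10 at day 4 with 2.2 ng/ml and 7.90 ± 0.07 with 10 ng/ml. The DKO means were 4.62, then 8.41 ± 0.07, 8.06 ± 0.11 and 8.52 ± 0.05. WT cells with the higher dose and DKO cells with the lower dose were therefore the low cultures, and the order of these neighbours was 7.90 and 8.06, with arrays from 7.83 to 7.94 and from 7.93 to 8.14, which overlap. The 4 other activated cultures had means from 8.41 to 8.52, and the array ranges of any 2 of them overlapped. Gene by gene, WT at 10 ng/ml had the lowest mean of the 6 activated groups for 35 genes and DKO at 2.2 ng/ml for the other 17, while DKO at 10 ng/ml had the highest mean for 24, WT day 2 for 20, WT at 2.2 ng/ml for 5, DKO day 2 for 2 and DKO at 2.2 ng/ml for 1.

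The dose of anti-CD3e thus had opposite signs in WT and DKO cells for most members. In WT cells, 32 of 52 fell at 10 ng/ml relative to 2.2 ng/ml and 0 rose (7.52% of all genes fell and 7.64% rose), with a median log2 difference of -0.56, or 1.47-fold lower, against -0.04 over all genes. For 38 members the 3 WT arrays at 10 ng/ml were all below the 3 at 2.2 ng/ml (15.3% of all genes). In DKO cells, 21 of 52 rose and 0 fell (4.47% of all genes rose and 3.68% fell), with a median of 0.47, or 1.39-fold higher, against -0.01 over all genes, and for 47 the arrays at 10 ng/ml were all above those at 2.2 ng/ml (13.1% of all genes); for 1, Smc4, they were all below (12.8%). The genes had been proposed as a group with this pattern already known, so these counts describe it and are no independent evidence of its direction.

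The interaction, which is the DKO dose difference minus the WT dose difference, passed the test for 42 of 52 members, each positive (3.56% of all genes were called positive and 3.38% negative). Its median was 2.01-fold, against a log2 value of 0.02 over all genes, and on the log2 scale it ran from 0.23 for Smc4 to 1.36 for Mad2l1. The signs were negative in WT and positive in DKO for 48 of the 52 (24% of all genes). The exceptions were Smc4 and Spc25, negative in both, and Cdc25c and Prr11, positive in both. Some signs lie so near 0 that they turn with 1 array left out, as for Prr11 and Ttk in WT and Kif23 in DKO cells. Members called lower in WT and higher in DKO numbered 9 (0.281% of all genes): Ncaph, Cdca3, Bub1b, Cdc20, Nuf2, Spc24, Cenpe, Kif4 and Kif15. Only Cdc20 of these kept both calls whichever single array of the compared groups was left out. A further 23 were called in WT alone, 12 in DKO alone and 8 in neither, where a call in one genotype and not in the other does not by itself show a difference between them.

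The DKO calls changed most when single arrays were left out. There the count of 21 was 9 without 2.2 ng/ml replicate 1, 12 without 10 ng/ml replicate 1 and 13 without 10 ng/ml replicate 2, and 9 calls held whichever array of the compared groups was left out: Cdca2, Aurka, Melk, Ttk, Hmmr, Prr11, Cdc20, Spc24 and Cenpe. In WT cells the count was 26 to 31 with 1 array left out, and 24 of 32 calls held in all 6 such fits. The 8 others were Espl1, Cdca3, Nek2, Nuf2, Spc24, Cenpe, Kif2c and Nusap1, whose adjusted p reached at most 0.217 (Espl1 without WT 10 ng/ml replicate 3). Of the 42 interaction calls, 33 held in all 12 such fits, and the exceptions were Top2a, Espl1, Ccna2, Incenp, Cdca8, Bub1, Ttk, Spc25 and Anln.

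**Figure D3:**
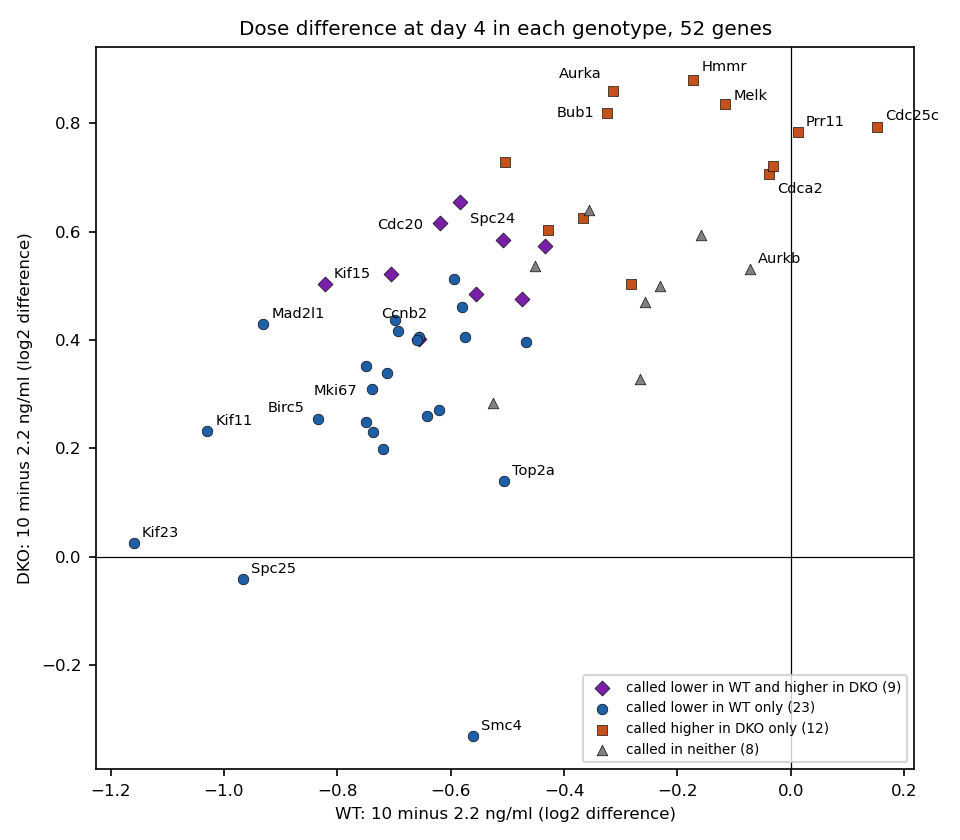
Log2 difference of 10 minus 2.2 ng/ml at day 4 in WT (horizontal axis) against DKO (vertical axis) for the 52 genes, with symbols for the calls in each genotype. Most points lie in the upper left, lower in WT and higher in DKO, with Kif23 and Kif11 at the left, Hmmr and Aurka at the top, and Smc4 below 0 on both axes.

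The WT and DKO dose differences share no arrays. Across the 52 genes they correlated at r = 0.66, against 0.38 across all 19938 genes, as a description of points that come from the same 12 arrays and one normalization. Kif23 and Spc25, with WT differences of -1.16 and -0.97, had DKO differences of 0.02 and -0.04. Hmmr, Melk and Prr11, with DKO differences of 0.88, 0.84 and 0.78, had WT differences of -0.17, -0.12 and 0.01.

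Markers of other states moved with the DKO dose difference. The summed intensity of the 3 measured of 5 naive T cell markers (Ccr7, Lef1, S1pr1) ran from 2051 to 2869 on DKO arrays at 2.2 ng/ml and from 1352 to 1499 at 10 ng/ml, against 1232 to 1888 and 1355 to 1497 in WT cells. S1pr1, the receptor that lets T cells leave lymph nodes, fell by 2.51 on the log2 scale in DKO cells (adjusted p = 6.58e-07) and Ccr7 by 0.59 (adjusted p = 0.0346). DKO replicates 1, 2 and 3 at 2.2 ng/ml had sums of 2869, 2465 and 2051 and mean log2 levels over the 52 genes of 7.93, 8.11 and 8.14. In the WT 2.2 ng/ml group the sums were 1623, 1888 and 1232 and the levels 8.41, 8.32 and 8.52. In both groups the array with the highest sum had the lowest mitotic level, as also in WT day 2 and DKO 10 ng/ml cells. In DKO day 2 and WT 10 ng/ml cells the array with the highest sum (1600 and 1497) had the highest level (8.48 and 7.94). The part of these markers in the dose result was not tested.

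Of the other lists, 4 of 5 B cell markers were measured. Their sum ran from 84.2 to 93.5 in DKO cells at 2.2 ng/ml and from 107 to 153 at 10 ng/ml, through Cd79b (43.4 to 88.8, adjusted p = 0.000637), while Ms4a1 and Pax5 stayed below 28.6 in every group and Cd79a fell by 0.83. In the myeloid list, all 6 of which were measured, Adgre1 rose by 0.64 to a mean of 11.5, below 28.6, and the sum ran from 116 to 130 and then from 112 to 127. The sum of the T cell list was 6357 to 6712 in DKO cells at 2.2 ng/ml and 5468 to 5809 at 10 ng/ml, with Cd3e and Cd5 called lower (-0.45 and -0.70). The part of these changes in the mitotic result was not tested.

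Among genes of chromosome structure and cohesion, 6 of 10 fell with dose in WT cells, 2 rose in DKO cells and 6 had a called interaction, with a median interaction of 0.80. Mki67 was at 994, 1098 and 944 in WT cells with 2.2 ng/ml and at 605, 558 and 656 with 10 ng/ml. In DKO cells it was at 853, 893 and 864 with the lower dose and at 1051, 1037 and 1149 with the higher dose. Neither pair of doses overlapped, and the arrays of the higher dose were the low ones in WT and the high ones in DKO cells. The WT fall of 0.74 ± 0.14 on the log2 scale was called (adjusted p = 0.000622), the DKO difference of 0.31 ± 0.14 was not (adjusted p = 0.246), and the interaction was 1.05 ± 0.20 (adjusted p = 0.00158).

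Top2a was at 1337, 1517 and 1570 in WT cells at 2.2 ng/ml and at 1068, 876 and 1187 at 10 ng/ml. The 3 values at the higher dose lay below all 3 at the lower dose. Its WT fall was 0.51 ± 0.12 (adjusted p = 0.00385), its DKO difference 0.14 ± 0.12 (adjusted p = 0.64), and its interaction of 0.65 ± 0.17 (adjusted p = 0.0184) was lost without WT 2.2 ng/ml replicate 3 (adjusted p = 0.0541) or WT 10 ng/ml replicate 2 (0.0665). The second, dimmer Top2a probe set was not used. Its dose differences were unlike these, at 0.04 in WT and 0.85 in DKO cells. The WT call was lost when both probe sets were averaged (adjusted p = 0.436).

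The condensin subunits did not move as one. Smc2 fell in WT cells by 0.64 ± 0.10 (adjusted p = 4.21e-05), from 670, 649 and 802 to 430, 459 and 465, and its interaction was 0.90 ± 0.14 (adjusted p = 0.000131). Ncaph, the kleisin of condensin I, fell by 0.56 ± 0.12 in WT (adjusted p = 0.0017) and rose by 0.49 ± 0.12 in DKO (adjusted p = 0.0103), a rise lost without DKO 2.2 ng/ml replicate 1 (adjusted p = 0.0715) or 10 ng/ml replicate 1 (0.056). Ncapd2 and Ncapg, the other condensin I members, passed in neither genotype, with interactions of 0.59 (adjusted p = 0.0818) and 0.73 (0.0898). Smc4 fell in WT cells by 0.56 ± 0.12 (adjusted p = 0.0013), and its DKO arrays stood at 2102, 2078 and 1785 with 2.2 ng/ml and 1545, 1526 and 1659 with 10 ng/ml. It was the one member whose DKO arrays were all lower at the higher dose (log2 difference -0.33 ± 0.12, not called, adjusted p = 0.0913), and its interaction of 0.23 had a 95% interval from -0.11 to 0.57.

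Of the cohesion genes, Espl1, the separase that cuts cohesin at anaphase, fell in WT cells by 0.47 ± 0.15 (adjusted p = 0.0375), a call lost without any of 4 single arrays (adjusted p up to 0.217). Cdca5, also called sororin, which protects cohesin, had a WT difference of -0.45 ± 0.24 and a DKO difference of 0.54 ± 0.24, neither called, with DKO arrays at 10 ng/ml spread from 164 to 349. Cdca2, which brings a phosphatase to chromosomes at mitotic exit, did not differ detectably in WT cells (144, 137 and 129 against 132, 131 and 134; log2 difference -0.04, 95% interval -0.29 to 0.21) and rose in DKO cells from 108, 106 and 116 to 175, 182 and 181 (0.71 ± 0.12, adjusted p = 0.000285). The WT groups overlapped and the DKO groups did not.

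**Figure D4:**
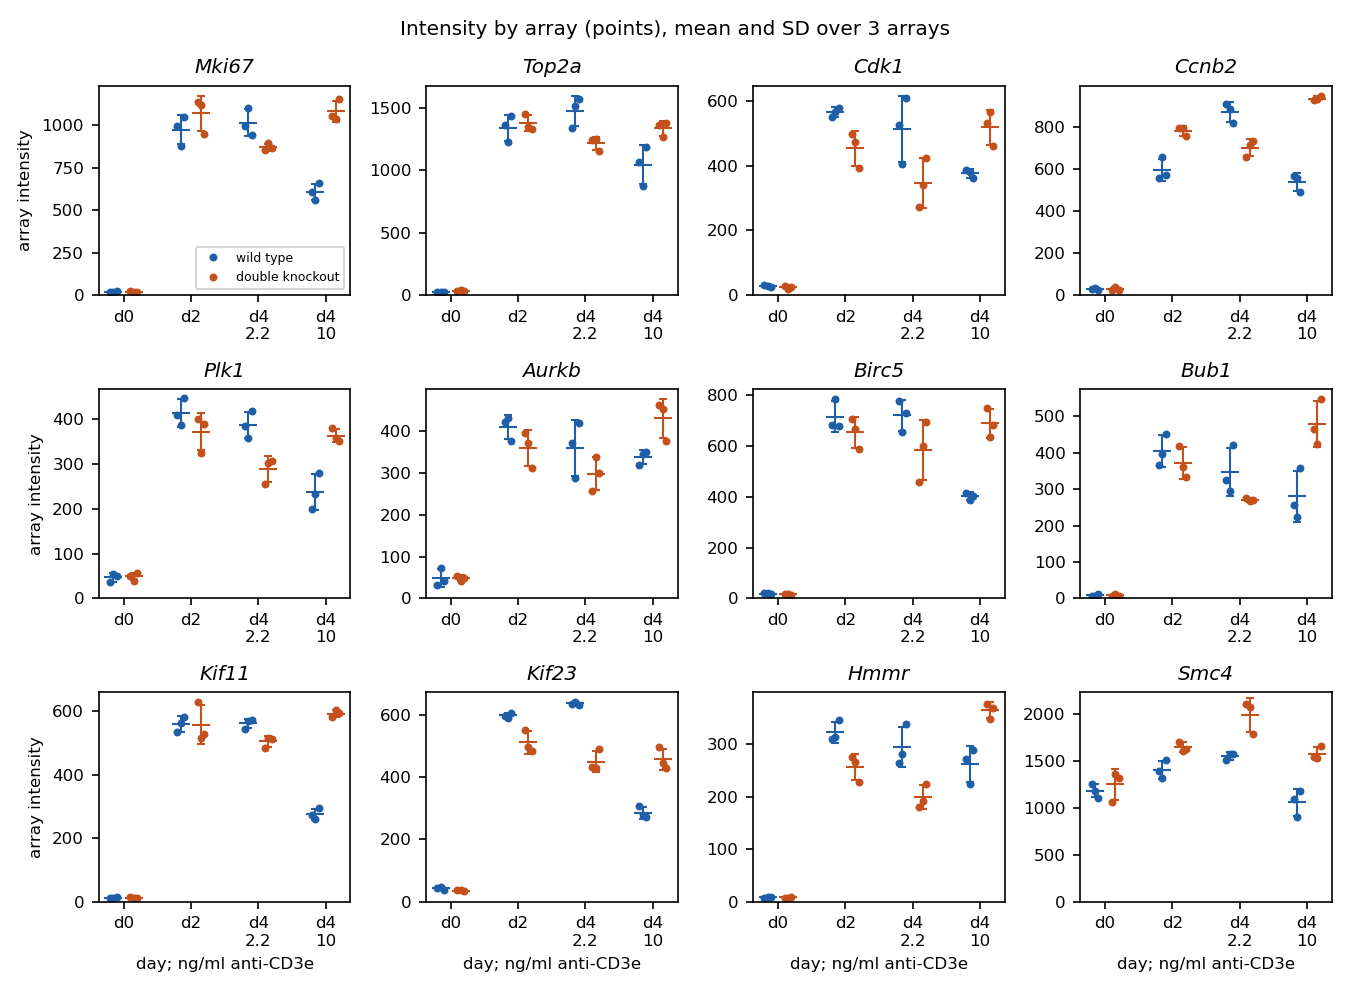
Intensity of 12 of the 52 genes on each array of the 8 groups: points are arrays, with the group mean and SD (n = 3), WT in blue and DKO in orange. In WT the points at day 4 are lower at 10 than at 2.2 ng/ml for Mki67, Kif11 and Kif23, and in DKO they are higher at 10 ng/ml for Cdk1, Bub1 and Hmmr.

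Cdk1, the kinase that drives entry into mitosis, and its partners gave 3 falls in WT, 3 rises in DKO and 4 called interactions among 6 genes. Cdk1 stood at 524, 405 and 610 in WT cells at 2.2 ng/ml and at 387, 381 and 361 at 10 ng/ml. In DKO cells the values were 272, 340 and 425 with the lower dose and 532, 565 and 459 with the higher. All arrays of the WT high dose were under those of the low dose, and all arrays of the DKO high dose were over them. The WT difference of -0.43 ± 0.16 was not called (adjusted p = 0.0855), the DKO rise of 0.60 ± 0.16 was (adjusted p = 0.02, and 0.0592 to 0.169 without replicate 1 or 2 of either DKO group), and the interaction was 1.03 ± 0.23 (adjusted p = 0.00567).

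Ccnb2, a B-type cyclin that activates Cdk1, was at 910, 889 and 822 in WT cells with 2.2 ng/ml and at 570, 560 and 492 with 10 ng/ml. Its DKO values were 657, 717 and 734 and then 928, 933 and 951. Both pairs were apart, in opposite directions, with an interaction of 1.11 ± 0.19 (adjusted p = 0.000399). Ccna2, cyclin A2, fell in WT by 0.75 ± 0.19 (adjusted p = 0.00579) with an interaction of 1.0 ± 0.26 that was lost without WT 2.2 ng/ml replicate 3 (adjusted p = 0.0555) or DKO 2.2 ng/ml replicate 1 (0.0542). Cdca3, which helps destroy the Cdk1 inhibitor Wee1, fell by 0.51 in WT (lost without WT 10 ng/ml replicate 3, at an adjusted p of 0.126, or WT 2.2 ng/ml replicate 1 or 3) and rose by 0.59 in DKO cells (lost without DKO 2.2 ng/ml replicate 1, at 0.0747, or DKO 10 ng/ml replicate 1 or 2). Cks2, a small subunit of the kinase complex, was called in neither genotype (-0.36 ± 0.22 and 0.64 ± 0.22). Cdc25c, the phosphatase that switches Cdk1 on, rose in DKO cells from 66.8, 108 and 101 to 175, 155 and 140 (0.79 ± 0.19, adjusted p = 0.00963, and 0.104 without DKO 2.2 ng/ml replicate 1 and 0.052 without 10 ng/ml replicate 1), with no called difference in WT (0.15 ± 0.19).

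All 4 mitotic kinases had a called interaction, and each had a dose call in 1 genotype only. Plk1, which acts from centrosome maturation to cytokinesis, fell in WT cells from 385, 358 and 417 to 200, 233 and 280 (-0.71 ± 0.16, adjusted p = 0.00186). Its DKO arrays (255, 302 and 307, then 380, 357 and 352) were apart the other way without a call (0.34 ± 0.16, adjusted p = 0.234). Aurka, the centrosome kinase, was called in DKO cells, where it rose from 209, 181 and 225 to 375, 444 and 306 (0.86 ± 0.17, adjusted p = 0.00121). In WT cells its values were 371, 266 and 396 at 2.2 ng/ml and 297, 246 and 278 at 10 ng/ml, which overlap (-0.31 ± 0.17, adjusted p = 0.256). Both genes had a negative sign in WT and a positive one in DKO cells. Interactions were 1.05 ± 0.22 for Plk1 and 1.17 ± 0.24 for Aurka. Nek2, which splits centrosomes, fell in WT (-0.58 ± 0.16, adjusted p = 0.0146, and 0.0512 to 0.0852 without WT 2.2 ng/ml replicate 1 or 3 or 10 ng/ml replicate 2). Melk, a kinase of dividing cells, rose in DKO (0.84 ± 0.16, adjusted p = 0.000953), with a WT difference of -0.12 ± 0.16.

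In the chromosomal passenger complex, which corrects chromosome attachment and then guides cytokinesis, Birc5 (survivin) and Incenp fell in WT, and Cdca8 (borealin) rose in DKO cells. Birc5 was at 776, 655 and 729 in WT cells at 2.2 ng/ml and at 417, 387 and 405 at 10 ng/ml. The doses were far apart in WT (-0.83 ± 0.15, adjusted p = 0.000314), whereas the DKO arrays (459, 600 and 694, then 749, 636 and 682) overlapped (0.26 ± 0.15, adjusted p = 0.422), and the interaction was 1.09 ± 0.22 (adjusted p = 0.00188). Incenp, the scaffold, fell by 0.74 ± 0.18 (adjusted p = 0.00482), and its interaction of 0.97 was lost without WT 2.2 ng/ml replicate 3 (adjusted p = 0.0582). The Cdca8 rise of 0.50 ± 0.15 (adjusted p = 0.0422) was lost without any of 4 single DKO arrays (adjusted p up to 0.21), and its interaction of 0.79 ± 0.22 (adjusted p = 0.0259) without any of 5 arrays (up to 0.0907). Aurkb, the kinase of the complex, passed no dose test: its WT values were 372, 288 and 418 and then 320, 344 and 350, which overlap (-0.07, 95% interval -0.50 to 0.35). Its DKO arrays, at 258, 338 and 299 and then 461, 453 and 376, were apart without a call (0.53). The Aurkb interaction was 0.60 (95% interval 0.00 to 1.20).

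The spindle checkpoint holds anaphase until every chromosome is attached. All 5 of its members had a called interaction (median 1.23), with 3 falls in WT and 4 rises in DKO. Mad2l1, the protein that is changed into the inhibitor of Cdc20, was at 542, 462 and 609 in WT cells with 2.2 ng/ml and at 262, 268 and 313 with 10 ng/ml. Its DKO arrays were at 348, 424 and 470 and then at 591, 546 and 524. The pairs were apart in both genotypes, with a WT fall of 0.93 ± 0.17 (adjusted p = 0.0003), a DKO difference of 0.43 ± 0.17 (not called, adjusted p = 0.143) and an interaction of 1.36 ± 0.24 (adjusted p = 0.000571).

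Cdc20, which the checkpoint holds back and which then activates the anaphase ligase, was called in both directions. It went from 303, 216 and 297 to 151, 180 and 197 in WT cells and from 201, 224 and 265 to 344, 377 and 330 in DKO cells. The change was the same size on either side, -0.62 ± 0.14 (adjusted p = 0.00229) and 0.62 ± 0.14 (adjusted p = 0.00455). Bub1b fell in WT (-0.71 ± 0.15, adjusted p = 0.00133) and rose in DKO cells (0.52 ± 0.15, adjusted p = 0.028, and lost without any of the 6 DKO arrays but 10 ng/ml replicate 3, at up to 0.181). The kinases Bub1 and Ttk rose in DKO cells, by 0.82 ± 0.23 (adjusted p = 0.0266) and 0.72 ± 0.16 (adjusted p = 0.00379), and differed by -0.32 and -0.03 in WT with neither called. The Bub1 rise was lost without any of the 6 DKO arrays but 10 ng/ml replicate 2 (adjusted p up to 0.123). The Bub1 and Ttk interactions, 1.14 ± 0.33 and 0.75 ± 0.22, were lost without any of 9 (up to 0.0995) and of 8 arrays (up to 0.146).

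All 6 kinetochore genes fell in WT cells and had a called interaction, and 3 rose in DKO cells. The 4 subunits of the Ndc80 complex, which ties kinetochores to microtubules, had WT differences of -0.75 (Ndc80), -0.47 (Nuf2), -0.58 (Spc24) and -0.97 (Spc25), and DKO differences of 0.35, 0.48, 0.66 and -0.04 in the same order. Spc24 was at 309, 234 and 360 and then 217, 195 and 183 in WT, and at 247, 224 and 275 and then 380, 403 and 390 in DKO cells. Spc25, its partner in the complex, was at 188, 148 and 210 and then 93.0, 89.3 and 94.3 in WT, and at 143, 139 and 157 and then 156, 138 and 133 in DKO cells. The WT arrays of both genes were apart, while in DKO cells those of Spc24 were apart and those of Spc25 overlapped.

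The Spc24 rise in DKO cells was called (adjusted p = 0.00586), and its WT fall (adjusted p = 0.00816) was lost without WT 2.2 ng/ml replicate 3 (0.0732). Nuf2 was called in both genotypes, but its WT call was lost without any of 4 arrays (up to 0.0988) and its DKO call without each of the 6 (up to 0.146). The Spc25 interaction of 0.93 ± 0.26 (adjusted p = 0.0325) was lost without any of 8 arrays (up to 0.0961). Cenpe, the kinetochore motor that carries chromosomes to the spindle equator, fell by 0.43 ± 0.13 in WT (adjusted p = 0.0189, and 0.0533 to 0.0855 without WT 10 ng/ml replicate 1 or 2 or 2.2 ng/ml replicate 2 or 3) and rose by 0.57 ± 0.13 in DKO cells (adjusted p = 0.00386). Cenpf, a large kinetochore protein, fell in WT by 0.62 ± 0.12 (adjusted p = 0.000413), and its interaction was 0.89 ± 0.16 (adjusted p = 0.000946).

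All 7 kinesin motors fell in WT cells, and all 7 had a called interaction, with a median of 1.11. Kif11 was at 544, 569 and 572 in WT cells at 2.2 ng/ml and at 272, 261 and 294 at 10 ng/ml. The DKO arrays read 485, 515 and 514 and then 581, 604 and 593. The WT change was large against the spread of its arrays (-1.03 ± 0.11, adjusted p = 2.64e-07), the DKO arrays were apart the other way without a call (0.23 ± 0.11, adjusted p = 0.266), and the interaction was 1.26 ± 0.16 (adjusted p = 7.75e-06).

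Kif15, which can share the pole-separating work of Kif11, went from 376, 390 and 385 to 219, 197 and 236 in WT cells and from 298, 342 and 349 to 466, 468 and 464 in DKO cells. Its WT fall was 0.82 ± 0.12 (adjusted p = 2.4e-05), its DKO rise 0.50 ± 0.12 (adjusted p = 0.00893, and 0.0679 without DKO 2.2 ng/ml replicate 1) and its interaction 1.33 ± 0.17 (adjusted p = 1.36e-05). Kif4, a chromosome-bound motor, was the other kinesin called in both genotypes (-0.66 ± 0.12 and 0.40 ± 0.12), and its DKO call (adjusted p = 0.039) was lost without replicate 1 or 2 of either DKO group (up to 0.247). Kif2c, Kif20a, Kif20b and Kif22 had WT differences of -0.59, -0.72, -0.66 and -0.70 and DKO differences of 0.51, 0.20, 0.41 and 0.44, and no DKO call was made for these 4. The Kif2c call in WT was lost without WT 10 ng/ml replicate 2 (adjusted p = 0.11) or 2.2 ng/ml replicate 3 (0.0924).

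Of 4 spindle assembly factors 1 fell in WT cells, Nusap1, a microtubule-bundling protein (-0.57 ± 0.17, adjusted p = 0.0202, and 0.0526 to 0.093 without WT 2.2 ng/ml replicate 2 or 10 ng/ml replicate 2 or 3). Hmmr, a spindle-pole protein also known as RHAMM, was at 265, 282 and 338 in WT cells with 2.2 ng/ml and at 272, 224 and 290 with 10 ng/ml. In DKO cells it was at 181, 191 and 224 and then at 377, 348 and 369. The WT arrays overlapped (-0.17 ± 0.13, adjusted p = 0.469) and the DKO arrays were far apart (0.88 ± 0.13, adjusted p = 4.22e-05), with an interaction of 1.05 ± 0.18 (adjusted p = 0.000397). Tpx2, the activator of Aurka, rose in DKO cells by 0.63 ± 0.17 (adjusted p = 0.017, and 0.0596 to 0.105 without DKO 2.2 ng/ml replicate 1 or 10 ng/ml replicate 1 or 2). Dlgap5, which stabilises spindle fibres, passed no dose test (-0.16 ± 0.21 and 0.59 ± 0.21).

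In cytokinesis, Kif23 had the largest WT dose difference of the 52 genes. This motor of the centralspindlin complex was at 636, 641 and 631 in WT cells at 2.2 ng/ml and at 306, 278 and 271 at 10 ng/ml (-1.16 ± 0.11, adjusted p = 1.66e-08). In DKO cells it was at 431, 428 and 489 and then at 495, 446 and 429, which overlap (0.02, 95% interval -0.19 to 0.24). The WT groups were more than the spread of either apart, and the interaction was 1.18 ± 0.15 (adjusted p = 8.77e-06). Racgap1, its partner in centralspindlin, missed the threshold in WT (-0.53 ± 0.18, adjusted p = 0.0529) and in the interaction (0.81 ± 0.26, adjusted p = 0.059).

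Prc1, which bundles the central spindle, fell in WT (-0.66 ± 0.15, adjusted p = 0.0029). Ect2, the exchange factor that starts the furrow, rose in DKO cells from 65.7, 109 and 117 to 165, 166 and 138 (0.73 ± 0.20, adjusted p = 0.0208, and 0.204 without DKO 2.2 ng/ml replicate 1, the lowest array; it was also lost without 10 ng/ml replicate 1 or 2). Anln, the furrow scaffold, had differences of -0.26 and 0.47, neither called, and an interaction of 0.73 ± 0.21 (adjusted p = 0.0377) that was lost without any of 7 arrays (up to 0.121). Prr11, a gene of the late cell cycle outside these complexes, was at 597, 613 and 565 and then 648, 582 and 562 in WT, and at 388, 421 and 338 and then 639, 600 and 735 in DKO cells. Its WT arrays overlapped (0.01, 95% interval -0.34 to 0.37), it rose in DKO cells (0.78 ± 0.17, adjusted p = 0.0038), and its interaction of 0.77 ± 0.24 was not called (adjusted p = 0.0565).

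**Figure D5:**
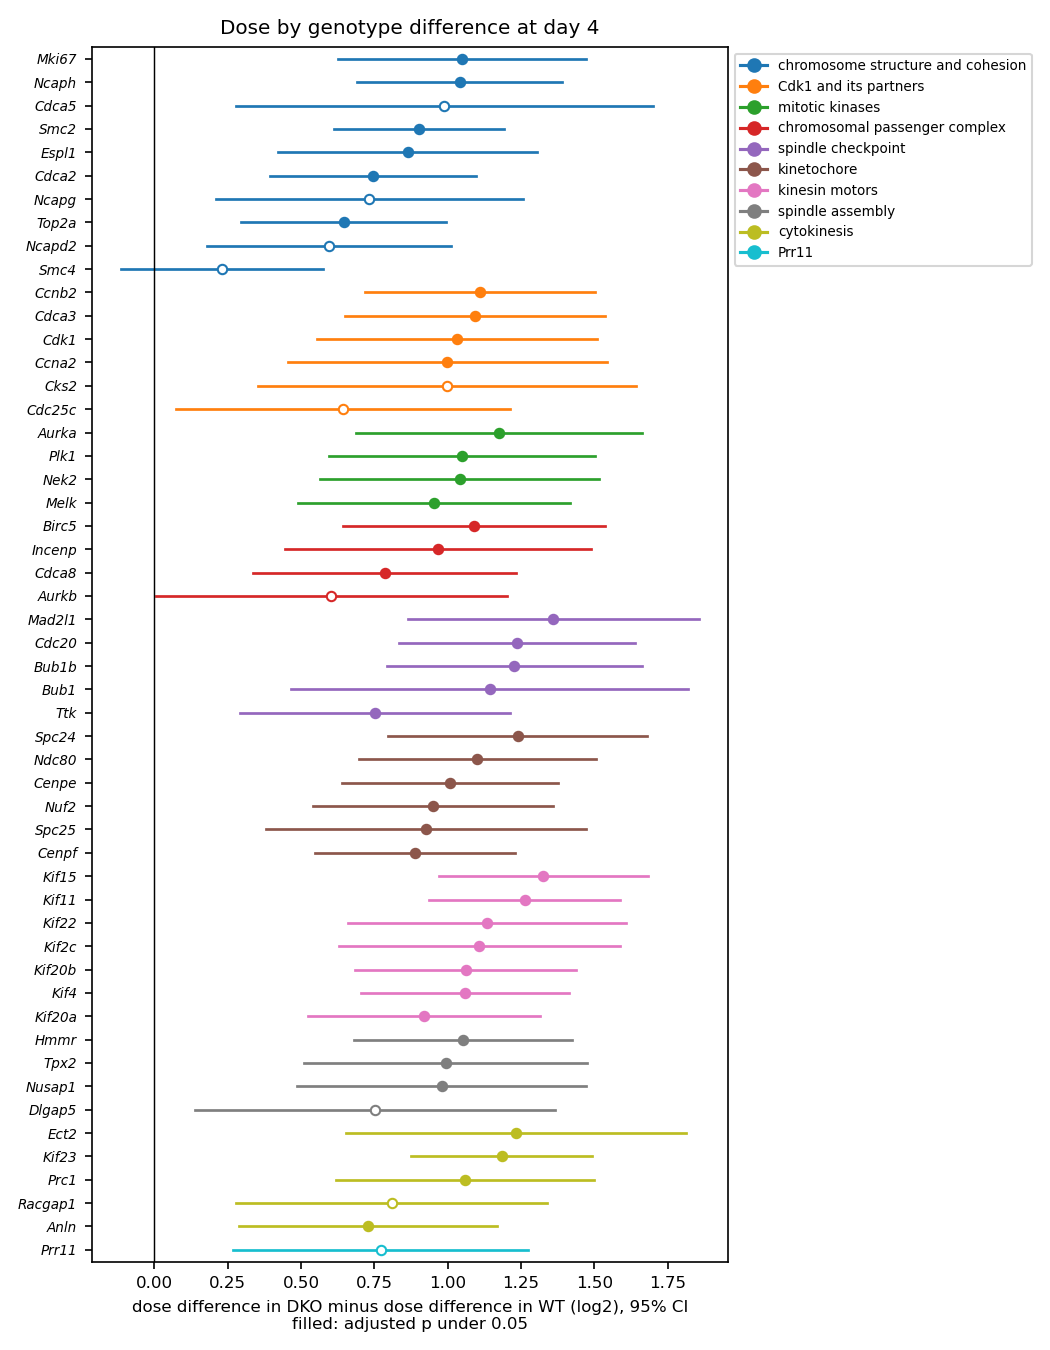
Interaction (DKO minus WT difference between 10 and 2.2 ng/ml, log2) of the 52 genes ordered by role, with 95% intervals; filled points passed an adjusted p of 0.05. All 52 points lie above 0, from 0.23 for Smc4 to 1.36 for Mad2l1, and 42 are filled.

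Read as genotype differences at one dose, the same arrays put most of the contrast at 10 ng/ml. There 37 of 52 members were higher in DKO than in WT cells (6.68% of all genes were), with a median log2 difference of 0.62, or 1.54-fold, and all 52 had a positive sign, from 0.14 for Prr11 to 1.11 for Kif11. For 48 the 3 DKO arrays were above the 3 WT arrays (15.8% of all genes). The largest were Kif11 (1.11 ± 0.11, adjusted p = 7.32e-08), Kif15 (1.10 ± 0.12, adjusted p = 3.38e-07), Cdc20 (1.0 ± 0.14, adjusted p = 9.21e-06), Mad2l1 (0.98 ± 0.17) and Spc24 (0.98 ± 0.15). All 7 kinesins, all 6 kinetochore genes and 4 of 5 checkpoint genes were called. Of these, the call of Spc25 was lost without any of 5 arrays (adjusted p up to 0.115) and that of Bub1 without any of 4 (up to 0.128). With 1 array left out the count was 30 to 37, and 26 of the 37 calls held in all 6 such fits.

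With 2.2 ng/ml, 6 of 52 members were lower in DKO cells (2.06% of all genes), with a median of -0.34: Ect2 and Aurka (both -0.73), Prr11 (-0.63), Hmmr (-0.57), Kif23 (-0.51) and Cenpf (-0.41). The sign was negative for 51 of 52, the exception being Smc4 at 0.35, and the DKO arrays were all below the WT arrays for 38 (8.18% of all genes) and all above them for Smc4 (8.58%). Only Kif23 of the 6 kept its call whichever array was left out (-0.51 ± 0.11, adjusted p = 0.00461), with WT arrays from 631 to 641 and DKO arrays from 428 to 489. The count was 1 without WT replicate 3, 2 without WT replicate 1 or DKO replicate 1, and 3 without DKO replicate 2. This comparison and the one at 10 ng/ml use the same 12 arrays as the dose comparisons, so they are the same data seen from the other side.

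The way each culture reached day 4 differed too. WT cells at 2.2 ng/ml stayed near day 2: 1 member rose (Ccnb2, 0.55 ± 0.13, adjusted p = 0.00763; 4.74% of all genes rose) and 2 fell (Melk, -0.72 ± 0.16, and Espl1, -0.62 ± 0.15; 6.46% of all genes fell), with a median of -0.12. WT cells at 10 ng/ml were lower than at day 2 for 38 members (12.9% of all genes), with a median of -0.66, or 1.58-fold lower. The falls reached 1.09 for Espl1, 1.07 for Kif23, 1.02 for Kif11, 0.98 for Kif15 and 0.97 for Cdc20 on the log2 scale, and took in all 7 kinesins, all 6 kinetochore genes, all 5 cytokinesis genes and all 4 kinases. Among Cdk1 and its partners 2 of 6 were called, Cdk1 itself (-0.59 ± 0.16, adjusted p = 0.00928) and Ccna2, and Prr11 had the one positive sign (0.24). With 1 array left out the count was 31 to 38. The calls of all 7 kinesins and all 6 kinetochore genes held in each such fit, whereas those of Anln (adjusted p up to 0.0941), Ect2 (0.0622) and Racgap1 (0.0704) in cytokinesis and of Aurka (0.0878) and Nek2 (0.101) among the kinases did not.

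In DKO cells at 2.2 ng/ml, 11 members were below day 2 (2.43% of all genes), led by Melk (-0.73 ± 0.16) and Aurka (-0.68 ± 0.17), with a median of -0.38 and 51 negative signs. None of the 11 calls held in all 6 fits with 1 array left out: the count was 1 without DKO 2.2 ng/ml replicate 1, 5 without replicate 2 and 3 without any one of the DKO day 2 arrays. DKO cells at 10 ng/ml had 39 positive signs against day 2, with a median of 0.13, and 1 rise (3.43% of all genes rose), Hmmr (0.51 ± 0.13, adjusted p = 0.0176), which was lost without DKO day 2 replicate 3 (adjusted p = 0.108) or 10 ng/ml replicate 1 (0.0664) or 3 (0.0649). Compared with day 0, all 52 members were higher in WT at 2.2 ng/ml and in DKO at both doses, and 51 in WT at 10 ng/ml, where Smc4 was at -0.16 ± 0.12. The Smc4 call was lost in WT at 2.2 ng/ml without WT day 0 replicate 3 (adjusted p = 0.0553), and in DKO at 10 ng/ml without DKO day 0 replicate 1 (0.191) or 10 ng/ml replicate 1 (0.0517) or 3 (0.0973). Of all genes, 16.1%, 11.6%, 16.4% and 18.4% were higher in those cultures, in the order WT 2.2, DKO 2.2, DKO 10 and WT 10 ng/ml.

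A wider list of 90 other mitosis genes, of which 86 were measured, was read the same way. In WT cells 33 of the 86 fell with dose and 1 rose (median -0.40), against 7.52% and 7.64% of all genes. In DKO cells 24 rose and 1 fell (median 0.39), against 4.47% and 3.68% of all genes. The interaction was called for 44, each positive (median 0.79), against 3.56% of all genes. Depdc1a, a mitotic regulator, stood at 148, 161 and 195 and then 73.5, 70.1 and 96.3 in WT, and at 77.6, 107 and 123 and then 151, 141 and 183 in DKO cells, with an interaction of 1.72 (adjusted p = 4.7e-05). Cdc25b, the phosphatase that starts Cdk1 activation, rose in DKO cells (0.88, adjusted p = 8.21e-05), and Kif14 and Fbxo5 fell in WT (-0.87 and -1.05). Psrc1 rose in both genotypes (0.78 and 0.88), the one rise in WT, and Zw10 fell in both (-0.70 and -0.51), the one fall in DKO cells. Both Psrc1 calls were lost in some fits with 1 array left out, and the DKO call of Zw10 was lost in each of the 6. With 1 array left out the counts ran from 20 to 33 for falls in WT, 10 to 22 for rises in DKO and 29 to 44 for the interaction.

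Among 23 regulators of cell cycle transcription, 8 fell with dose in WT cells and 2 rose, against 7.52% and 7.64% of all genes, so that the rises are near the background share. In DKO cells 0 passed in limma, against 4.47% of all genes called higher and 3.68% lower, which does not show that none changed. The interaction was called positive for 5 and negative for 1, against 3.56% and 3.38% of all genes, and the negative share is again near the background. Foxm1, the G2 activator, was at 225, 203 and 224 in WT cells at 2.2 ng/ml and at 108, 101 and 120 at 10 ng/ml. Its DKO values were 162, 178 and 199 and then 240, 235 and 218. Both pairs were apart, with a WT fall of 0.99 ± 0.18 (adjusted p = 0.000358), a DKO difference of 0.36 ± 0.18 (not called, adjusted p = 0.301) and an interaction of 1.35 ± 0.26 (adjusted p = 0.00138).

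E2f8, a repressor that the cycle itself induces, went from 255, 231 and 243 to 99.5, 93.6 and 133 in WT cells (-1.18 ± 0.21) and from 176, 205 and 180 to 236, 189 and 176 in DKO cells, where the doses overlapped (0.09 ± 0.21). Rbl2, which encodes p130, moved against the members: it rose in WT from 217, 249 and 157 to 315, 305 and 292 (0.58 ± 0.18, adjusted p = 0.0313) and differed by -0.27 ± 0.18 in DKO cells, with an interaction of -0.85 ± 0.26 (adjusted p = 0.0466). At 10 ng/ml Rbl2 was lower in DKO than in WT cells (-1.38 ± 0.18, adjusted p = 4.45e-06). Of the 6 called interactions, those of Foxm1 and E2f8 held in all 12 fits with 1 array left out, whereas those of Rbl2 (adjusted p up to 0.159), Tfdp1, E2f7 and Lin9 did not, and the Rbl2 rise in WT was lost without WT 2.2 ng/ml replicate 3 (adjusted p = 0.218) and 4 other arrays. Mybl2, which encodes B-Myb, passed in no dose comparison (-0.04 in WT and 0.12 in DKO cells).

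The dose response was also set beside the promoter letters. The median interaction was 1.05 for the 32 members with CHR letters in the 300-base window and 1.02 for the 10 matched members without them. The median WT dose difference was -0.61 and -0.51, and the median DKO difference 0.43 and 0.48, in the same order. These are descriptions with no test, and Mad2l1, whose window holds none of the 4 motifs, had the highest interaction of all.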

How the data were processed

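RNA of 24 samples in 8 groups was hybridised to Affymetrix gene arrays. The deposited values are RMA-processed intensities on a linear scale, as the file values show. RMA is named in the submitters' processing notes, with no version, and corrects background, normalizes between arrays and summarises probes, which pulls arrays toward one distribution. These intensities, from 1.95 to 14644.9, were turned into log2 values.

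Of 35556 probe sets, 21789 had 1 gene symbol in the platform annotation, 1621 had several and 12146 had none, and the brightest single-symbol probe set stood for each of 19938 genes. limma 3.58.1 in R 4.3.3 was fitted with 1 mean per group (16 residual and 7.49 prior degrees of freedom) and no covariate, for 16 differences between groups and 2 interactions. Within each of these, the Benjamini-Hochberg adjustment ran over all genes, and an adjusted p under 0.05 was a call. Intervals are 95%. The code was checked on simulated data.

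The members, lists and tests were chosen with earlier results of these data known. The rule for naming genes allowed any of the 52 members, gave values for a short list of well-known ones, for the extremes of each comparison and for the smallest p of each role, and up to 6 other genes a list by p. Psrc1, Zw10 and Mybl2 were named after their values were seen. Alternatives changed the dim-gene filter, probe set choice, features tested, normalization, offset, samples fitted, replicate block, moderation and array weights, and left out arrays. The sources used here give no scan date or batch. Group levels of the marker lists were summed over intensities.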

Additional observations from a re-analysis of the deposited data

Results flagged for a closer look

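The dose effect differed between the genotypes by limma's interaction test for 42 of the 52 genes, against 3.56% of all genes called positive. The genes were proposed as a group with opposite dose responses known, so the count restates that choice and is no independent evidence. The size of that difference (DKO minus WT, log2) was 1.36 for Mad2l1, 1.33 for Kif15, 1.26 for Kif11, 1.24 for Spc24, 1.24 for Cdc20, 1.23 for Ect2, 1.18 for Kif23 and 1.17 for Aurka. It was 1.14 for Bub1, 1.11 for Ccnb2, 1.09 for Birc5, 1.05 for Hmmr, 1.05 for Plk1, 1.05 for Mki67 and 1.03 for Cdk1. Smaller differences were measured for Smc2 (0.90), Anln (0.73) and Top2a (0.65). Groups of 3 arrays are too small for a test of single outlying arrays.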

How the results depend on the processing

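No count and no called difference of a member reversed direction under the 11 other settings or with 1 array left out, while uncalled differences near 0, such as those of Prr11 and Ttk in WT and Kif23 in DKO cells, could change sign. The main dose counts stayed within 1.5 times of their value apart from DKO, where 21 became 34 with 16 added before log2 and 9 to 22 with 1 array left out. DKO against WT at 2.2 ng/ml, 6 calls, gave 14 with 16 added, 1 with the compared groups fitted alone, 1 without replicate 3 of both WT day 2 and WT 2.2 ng/ml, and 1 to 6 with 1 array left out. The 11 calls of DKO at 2.2 ng/ml against day 2 became 4 with the compared groups alone and 1 to 10 with 1 array left out, and the 1 call of DKO at 10 ng/ml against day 2 became 0 to 2. The day 0 call, Ndc80, was 0 under cyclic loess, 16 added, compared groups alone, the replicate block, array weights and without replicate 3 of both WT day 2 and WT 2.2 ng/ml, and 0 to 2 with 1 array left out. At day 2, 0 calls became 1 with the dim filter, cyclic loess, compared groups alone or array weights, 2 with 16 added, and 0 to 1 with 1 array left out. The activation interaction, 0 calls, became 1 with the dim filter and 0 to 1 with 1 array left out. The cause of these shifts was not tested. Other normalizations moved the median gene by over 0.1 only against day 0 (0.12 to 0.14). Of 84 pairs of arrays with the same replicate number, 4 had residuals that correlated above 0.1 (range -0.152 to 0.264). The highest, 0.162 and 0.264, joined replicates 2 and 3 of WT at 2.2 and 10 ng/ml. Whether the numbers pair arrays there cannot be told. The replicate block gave 32 calls for WT dose, 22 for DKO dose and 43 for the interaction. Depth here is signal over background, and levels at day 0 are limited by it.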
